A study of Rattus norvegicus with 16 samples.

Results

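Cholesterol is built from acetyl units through mevalonate, isoprene units and squalene, and the ring-shaped sterols that follow are trimmed enzyme by enzyme. The pathway is switched on by the transcription factor SREBP, which its escort SCAP carries out of the endoplasmic reticulum when sterols are scarce. Insig1 holds SCAP back when sterols are plentiful, and its own gene is a target of SREBP, so its transcript follows those of the enzymes. The brain makes nearly all of its own cholesterol, because the blood-brain barrier keeps out lipoproteins, and myelin holds much of it.

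The genes described are 9 enzymes of this pathway (Mvd, Idi1, Fdps, Fdft1, Sqle, Lss, Cyp51, Msmo1 and Dhcr7) and Insig1. They were taken by symbol, as the 14 of 31099 probe sets annotated with a single symbol that is 1 of these 10, among 14218 genes measured. They had been put together because earlier results of the same data showed a small early increase and a decrease at 48 h, so the tests given are not independent evidence for that pattern. Cyp51, Fdft1, Idi1 and Lss were each measured by 2 probe sets, which were averaged, and the other 6 genes by 1.

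RNA came from the lateral cortex of male Wistar rats, 8 weeks old, on 16 Affymetrix arrays of 1 colour hybridised with labelled polyA RNA. Injured rats were given lateral fluid percussion of moderate strength (3.3 ± 0.3 atm), in which fluid pushed onto the dura contuses the cortex, and were sampled 3, 6, 12 or 48 h later, with 3 arrays per time. Sham rats went through the same steps without the pulse and gave 1 array at each of the 4 times. All rats, shams included, had a craniectomy of 4.8 mm made 48 h before the procedure, and were perfused with saline before dissection, so that no group is an untouched cortex. Every array carries a label number of its own and was read as 1 animal, although the labels do not say this outright. P-values therefore measure the spread between arrays, which may be partly technical.

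The submitters set the 3, 6 and 12 h shams together as 1 control group of 3 arrays, called early shams here, and kept the 48 h sham apart because it clustered away from them. The 4 comparisons of injured cortex with the early shams share those arrays and are not independent of each other. Values are log intensities taken as log2, with each probe set's median over the 16 arrays set to 0, so that they show differences between arrays and no absolute level. For the same reason the tissue label could not be checked by whether its markers are present. In bulk tissue, fewer cells of a type and less RNA per cell cannot be told apart. The closest pair of arrays differed by a root mean square of 0.202, so no pair held the same values. The injured arrays number 2 of 12 h and number 2 of 48 h had the widest spread of values, and counts without both are given with the alternatives.

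Of the 10 genes, 8 had a promoter in the RefSeq table of GRCr8, taken as the 250 bases before to 50 bases after the start. The 4 shown belong to the 3 genes that fell most between 12 and 48 h (Insig1, Idi1 and Msmo1) and to Fdps, which holds the core of the sterol element that SREBP binds. They lie at chr4:8057720-8058019 on the minus strand for Insig1, chr17:66547475-66547774 on the minus strand for Idi1, chr16:29746863-29747162 on the plus strand for Msmo1 and chr2:176804767-176805066 on the minus strand for Fdps. Each is written in the direction of transcription, and capitals mark TCACNCNA, the sterol element core, and CCAAT, the box bound by NF-Y, or its reverse complement.
Insig1: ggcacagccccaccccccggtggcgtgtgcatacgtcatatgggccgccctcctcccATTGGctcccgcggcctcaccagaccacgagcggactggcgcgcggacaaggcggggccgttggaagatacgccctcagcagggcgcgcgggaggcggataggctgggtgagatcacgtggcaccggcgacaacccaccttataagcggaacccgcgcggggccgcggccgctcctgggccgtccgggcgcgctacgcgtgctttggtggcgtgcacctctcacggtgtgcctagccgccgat
Idi1: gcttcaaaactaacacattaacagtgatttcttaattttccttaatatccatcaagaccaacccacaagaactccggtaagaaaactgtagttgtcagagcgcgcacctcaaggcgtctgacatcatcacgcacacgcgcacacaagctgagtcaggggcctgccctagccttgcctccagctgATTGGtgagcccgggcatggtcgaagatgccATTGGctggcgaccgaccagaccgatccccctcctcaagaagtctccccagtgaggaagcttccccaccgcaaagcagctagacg
Msmo1: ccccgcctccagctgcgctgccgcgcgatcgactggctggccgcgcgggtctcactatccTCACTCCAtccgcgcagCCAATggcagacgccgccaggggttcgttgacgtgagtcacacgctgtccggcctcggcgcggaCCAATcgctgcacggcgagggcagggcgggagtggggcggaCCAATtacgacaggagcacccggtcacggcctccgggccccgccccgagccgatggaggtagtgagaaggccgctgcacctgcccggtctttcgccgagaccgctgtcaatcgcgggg
Fdps: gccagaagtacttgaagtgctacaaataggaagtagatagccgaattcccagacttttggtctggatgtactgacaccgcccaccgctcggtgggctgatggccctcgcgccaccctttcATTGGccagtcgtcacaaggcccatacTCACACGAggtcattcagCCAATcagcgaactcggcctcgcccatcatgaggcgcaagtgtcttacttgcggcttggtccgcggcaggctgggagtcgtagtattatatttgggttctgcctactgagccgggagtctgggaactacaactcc

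The core TCACNCNA was found on either strand in 2 of the 8 promoters, at base -103 from the start in Fdps and at base -190 in Msmo1, against 9.89% of all 33469 promoters in the table. A stricter form, TCACNCCA, all of whose matches also match TCACNCNA, was found in 1 of the 8, in Msmo1, against 3.89% of all. CCAAT was found in 6 of the 8 (Idi1, Fdps, Lss, Insig1, Msmo1 and Mvd), against 37.5% of all, and GGGCGG, the box bound by Sp1, in 7 of the 8, every one but Idi1, against 33.1%. These letters were chosen after several had been looked at, and a match describes the sequence only.

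At 48 h after injury most of the 10 genes were lower than in sham cortex. Against the early shams, 8 of the 10 genes fell (limma, adjusted p under 0.05 over all genes), where 3.32% of all genes were called lower and 6.37% higher. Insig1 fell most, by 1.19 on the log2 scale, and Idi1, Msmo1, Dhcr7, Mvd and Fdft1 fell by 0.60 to 0.73. The median of the 10 differences was -0.60, against -0.01 over all genes. All 3 injured arrays lay below all 3 shams for 9 of the 10 genes, every one but Sqle, and for 14.7% of all genes. These shams were taken earlier than 48 h, so injury and time since the procedure cannot be told apart in this comparison.

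Insig1 read -1.38, -1.12 and -1.41 in injured cortex at 48 h, against -0.10, -0.16 and -0.09 in the early shams and -0.34 in the 48 h sham. Its 3 injured arrays were the lowest of all 16. The difference from the early shams was -1.19 ± 0.18 (SE, adjusted p = 0.00212), a level 0.439 times theirs.

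Among the enzymes that make and join isoprene units, Mvd, the decarboxylase that yields isopentenyl diphosphate, read -0.72, -0.76 and -0.82 in injured cortex, against 0.01, -0.18 and -0.31 in the early shams and -0.24 in the 48 h sham. Idi1, the isomerase that makes the second isoprene unit, read -1.0, -0.92 and -1.18 in injured cortex, against -0.34, -0.35 and -0.24 in the early shams and -0.04 in the 48 h sham. Both sets of injured arrays lay clear of every sham. The differences from the early shams were -0.61 ± 0.13 for Mvd (adjusted p = 0.0118) and -0.73 ± 0.12 for Idi1 (adjusted p = 0.00294). The 2 Idi1 probe sets gave -0.69 and -0.77. Fdps, which joins the units into farnesyl diphosphate, the branch point to sterols and to other isoprenoids, read -0.52, -0.39 and -0.58 in injured cortex, against 0.03, -0.13 and -0.17 in the early shams and -0.06 in the 48 h sham. Its difference was -0.41 ± 0.08 (adjusted p = 0.00697), and its adjusted p was 0.0511 when only the 48 h injured and early sham arrays were fitted.

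Among the squalene enzymes, Fdft1, squalene synthase and the first step given over to sterols, read -0.60, -0.58 and -0.56 in injured cortex, against 0.26, -0.11 and -0.11 in the early shams and -0.04 in the 48 h sham. The injured arrays had an SD of 0.0226 (n = 3), while the 3 h sham stood above the others. The difference was -0.60 ± 0.09 (adjusted p = 0.00228), and its 2 probe sets gave -0.72 and -0.47, both called. Sqle, the squalene epoxidase that is held to limit the flow into sterols, read -0.34, -0.35 and -0.67 in injured cortex, against 0.01, -0.37 and -0.13 in the early shams and -0.12 in the 48 h sham. The 6 h sham overlapped the injured arrays, and the difference of -0.29 ± 0.15 did not pass the test (adjusted p = 0.235), with a 95% interval from -0.60 to 0.02. Lss, which closes squalene epoxide into lanosterol, read -0.32, -0.17 and -0.16 in injured cortex, against 0.14, 0.04 and -0.13 in the early shams and -0.02 in the 48 h sham. Its injured arrays lay just below every sham, and the difference of -0.23 ± 0.11 did not pass the test (adjusted p = 0.199).

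Among the enzymes that trim the sterol rings, Cyp51, the demethylase of lanosterol, read -0.36, -0.58 and -0.58 in injured cortex, against -0.05, -0.08 and -0.08 in the early shams and -0.12 in the 48 h sham. Msmo1, the methylsterol monooxygenase that follows it, read -0.75, -0.73 and -0.94 in injured cortex, against -0.10, -0.10 and -0.18 in the early shams and -0.28 in the 48 h sham. Neither gene had an overlap between injured and sham arrays. The differences were -0.43 ± 0.08 for Cyp51 (adjusted p = 0.00721), whose 2 probe sets gave -0.38 and -0.49, and -0.68 ± 0.13 for Msmo1 (adjusted p = 0.00739). Dhcr7, the reductase that finishes cholesterol, read -0.47, -0.50 and -0.59 in injured cortex, against 0.16, 0.11 and 0.07 in the early shams and -0.09 in the 48 h sham. Its difference was -0.63 ± 0.09 (adjusted p = 0.00145), and its groups were clear of each other.

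**Figure D1:**
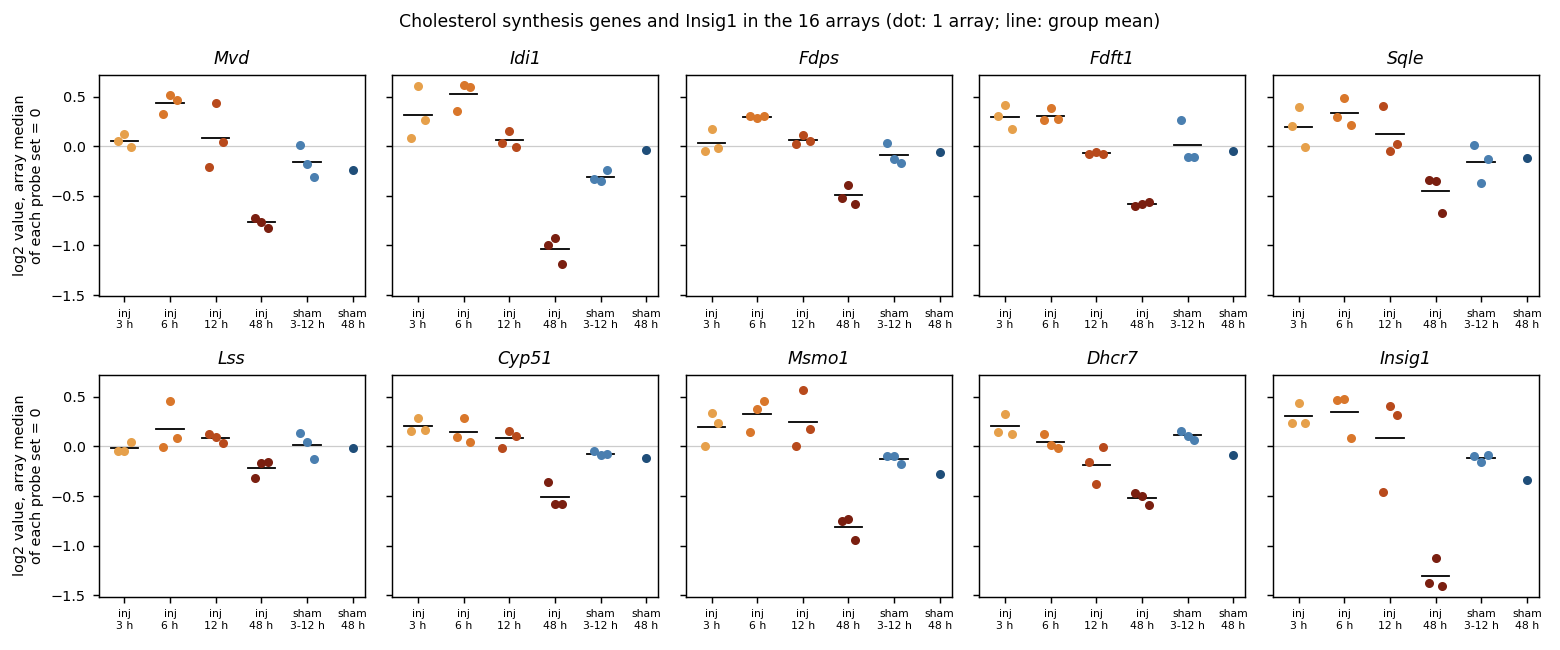
Centred log2 value (vertical axis, the median of each probe set over 16 arrays at 0) of the 10 genes in every array, in the order of the pathway with Insig1 last; dots are arrays and lines are group means. The lowest dot of every gene is an injured array of 48 h, where values run from -1.41 to -0.16, while the injured arrays of 3 and 6 h sit mostly above 0.

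The 48 h sham is the control that the submitters chose for the 48 h injury. Against this single array, all 10 genes were lower in all 3 injured arrays, where 25.9% of all genes lay below it in that way. The differences ran from -1.0 ± 0.17 for Idi1 and -0.96 ± 0.26 for Insig1 to -0.19 ± 0.15 for Lss, with a median of -0.48. None of the 10 genes was called by limma (adjusted p = 0.123 for Idi1, the lowest of the 10, and 0.393 to 0.826 for the others), and 0.00% of all genes were called. At an unadjusted p under 0.05, 8 of the 10 genes were lower, against 3.38% of all genes. This fit takes the spread around the single sham from the other groups. Without 48 h injured array number 3, the Idi1 difference from this sham was -0.92.

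No difference between the 48 h sham and the early shams passed the test in these genes. The 10 differences ran from -0.22 for Insig1 to 0.27 for Idi1, none was called or had an unadjusted p under 0.05, and 1 of 14218 genes was called (0.00703%). With 1 array on that side the 95% intervals were wide, for Sqle from -0.40 to 0.49.

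Injured cortex alone also showed the drop, with no sham on either side. Cell type markers differed between these times as well, as given below. At 48 h, 9 of the 10 genes were lower than in the injured arrays of 12 h (adjusted p under 0.05), where 7.14% of all genes were called lower and 8.19% higher. All 3 arrays of 48 h lay below all 3 of 12 h for all 10 genes, and for 13.2% of all genes. Insig1 differed by -1.39 ± 0.18 (adjusted p = 0.00047), a level 0.381 times that at 12 h. Idi1 differed by -1.10 ± 0.12 (adjusted p = 0.00014), Msmo1 by -1.06 ± 0.13 (adjusted p = 0.00036) and Mvd by -0.85 ± 0.13 (adjusted p = 0.00102). Cyp51, Sqle, Fdps and Fdft1 fell by 0.51 to 0.59 and Dhcr7 by 0.34.

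Lss, at -0.30 ± 0.11, did not pass that test on its averaged value (adjusted p = 0.075). Its 2 probe sets gave -0.38 (adjusted p = 0.0458) and -0.22 (adjusted p = 0.247). Those of Fdft1 gave -0.67 (adjusted p = 0.00076) and -0.35 (adjusted p = 0.0627), so that the second by itself was not called. The call of Dhcr7 was lost without 12 h array 1 or 3 or without 48 h array 2 or 3 (adjusted p up to 0.09), and that of Sqle without 12 h array 1 (adjusted p = 0.0558) or 48 h array 3 (adjusted p = 0.058). With the replicate number as a block the call of Dhcr7 was lost as well (adjusted p = 0.0716), and the other 8 stood.

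In the first hours most of the 10 genes lay somewhat above sham, and few passed the test. At 3 h the injured arrays gave differences from -0.03 for Lss to 0.63 for Idi1, with a median of 0.28 against -0.01 over all genes. Idi1 rose, by 0.63 ± 0.12 (adjusted p = 0.033), 1 of the 10 genes, where 0.485% of all genes were called higher. Idi1 read 0.08, 0.60 and 0.26 in injured cortex at 3 h, against -0.34, -0.35 and -0.24 in the early shams, so its groups did not overlap although the injured arrays differed widely. Cyp51, Insig1 and Msmo1 also had every injured array above every early sham, so that 4 of the 10 genes did, and 7.48% of all genes. The Idi1 call at 3 h was lost when injured array 2 or 3 or any early sham was left out (adjusted p up to 0.158), and with either of its probe sets by itself (adjusted p = 0.0574 and 0.0693).

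At 6 h the differences were largest above sham, with a median of 0.42 against -0.02 over all genes. Idi1, Mvd and Fdps rose, 3 of the 10 genes, where 1.98% of all genes were called higher. Idi1 read 0.36, 0.62 and 0.60 in injured cortex at 6 h, against the same -0.34, -0.35 and -0.24 in the early shams, a difference of 0.83 ± 0.12 (adjusted p = 0.00162) or 1.78-fold. Mvd read 0.32, 0.52 and 0.46 in injured cortex, against 0.01, -0.18 and -0.31 in the early shams, a difference of 0.59 ± 0.13 (adjusted p = 0.0259). Fdps read 0.30, 0.28 and 0.30 in injured cortex, against 0.03, -0.13 and -0.17 in the early shams, a difference of 0.38 ± 0.08 (adjusted p = 0.0182). No early sham reached the injured arrays of these 3 genes.

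At 6 h, 7 of the 10 genes had every injured array above every early sham, against 10.8% of all genes. Besides the 3 called genes these were Sqle, Cyp51, Insig1 and Msmo1, with differences of 0.22 to 0.49 and adjusted p from 0.0974 to 0.254. Fdft1, at 0.29, and Lss, at 0.17, overlapped the shams. Dhcr7 was the only gene of the 10 below 0, at -0.07. Idi1 remained called without any 1 of the 6 arrays, whereas the calls of Fdps and Mvd were lost in 5 and in 4 of those 6 fits (adjusted p up to 0.0863 for Fdps and 0.127 for Mvd). With the 6 h sham alone as the control none of the 3 was called.

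At 12 h none of the 10 genes passed the test in limma, where 4.87% of all genes were called in either direction. An unadjusted p under 0.05 in limma was found for 3 of the 10, against 2910 of all 14218 genes. Of these 3, Idi1 and Msmo1 were higher and Dhcr7 was lower. The differences ran from -0.30 ± 0.09 for Dhcr7 (adjusted p = 0.0837) to 0.38 ± 0.13 for Msmo1 (adjusted p = 0.129), with a median of 0.18 against -0.02 over all genes. Idi1, Cyp51 and Msmo1 had every injured array above every early sham, 3 of the 10 genes against 10.5% of all genes. Dhcr7 had every injured array below, 1 of the 10 against 11.0% of all genes.

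For Insig1, Mvd, Msmo1, Sqle and Dhcr7 the 3 injured arrays spread more at 12 h than at any other time. Insig1 read -0.46, 0.41 and 0.32 in injured cortex at 12 h, against -0.10, -0.16 and -0.09 in the early shams. Array 1 lay below every early sham, and arrays 2 and 3 lay above. Mvd had the same order, with -0.21, 0.43 and 0.04 in injured cortex, against 0.01, -0.18 and -0.31 in the early shams. Without 12 h array 1, Insig1 was called higher at 0.48 (adjusted p = 0.0412) and Msmo1 at 0.50 (adjusted p = 0.0459), where 560 of 14218 genes were. Without array 3 Dhcr7 was called lower at -0.38 (adjusted p = 0.022), where 391 of 14218 genes were. With all arrays 496 genes were called higher and 196 lower.

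With 3, 6 and 12 h averaged, Idi1 was 0.61 ± 0.10 above the early shams (adjusted p = 0.00359), 1 of the 10 genes called, where 2.08% of all genes were called higher.

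**Figure D2:**
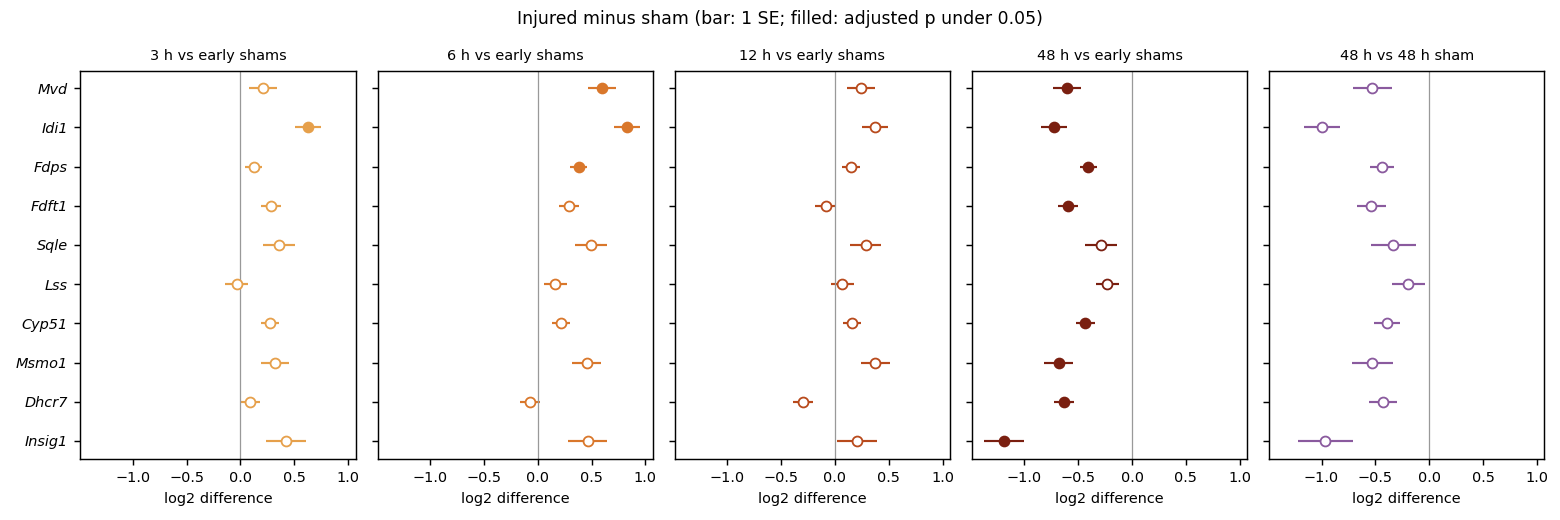
Log2 difference of injured minus sham cortex (horizontal axis) for the 10 genes, with 1 SE as the bar and filled points where the adjusted p was under 0.05. Points lie mostly right of 0 at 3, 6 and 12 h and all lie left of 0 at 48 h, with either control.

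The 10 genes varied together over the 16 arrays. The 45 pairs correlated with Pearson's r from 0.40 to 0.95, with a median of 0.86, as a description over arrays that share groups and normalization. The genes had been put together by a shared pattern in these arrays, so the correlations are not independent evidence that they vary together. Idi1 and Fdps followed the mean of the other 9 most closely, with r of 0.96 each, and Sqle (0.84), Dhcr7 (0.74) and Lss (0.70) least. After each group's mean was taken out the pairs ran from -0.34 to 0.81, with a median of 0.28, and 39 of 45 were above 0. Pairs of other genes are not given beside them. Dhcr7 was at 0.09 at 3 h, -0.07 at 6 h and -0.30 at 12 h against the early shams, and no test compared it with the other genes.

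Of the other enzymes of the pathway, 10 of 13 were measured and the other 3 were not analysed here. At 48 h against the early shams these 10 had a median of -0.26, with 8 below 0 and 2 above. Where 3.32% of all genes were called lower, none of the 10 was called higher and 4 were called lower. They were Acat2, which starts the pathway from acetyl-CoA, at -0.42 ± 0.09 (adjusted p = 0.0116), the ring-trimming enzymes Sc5d at -0.31 ± 0.06 (adjusted p = 0.0087) and Nsdhl at -0.38 ± 0.09 (adjusted p = 0.0206), and the sterol reductase Tm7sf2 at -0.47 ± 0.14 (adjusted p = 0.0449), which was named after its value was seen. The same 4 were called lower at 48 h than at 12 h of injury, by 0.38 to 0.60, where 7.14% of all genes were. Acat2 was also the only one of the 10 called at 6 h, higher by 0.49 ± 0.09 (adjusted p = 0.00944). At 6 h 1.98% of all genes were called higher. Mvk and Pmvk, the kinases just before Mvd, were at -0.22 and -0.05 at 48 h against the early shams and were not called. Against the single 48 h sham none of the 10 was called, and the median was -0.24.

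Of 8 measured regulators and uptake genes out of 11, Stard4, a carrier of cholesterol between membranes, was the only one called at 48 h, lower by 0.42 ± 0.10 than in the early shams (adjusted p = 0.0152). Over all genes 3.32% were called lower. Srebf2, which encodes the SREBP of the sterol pathway, was at -0.19 (adjusted p = 0.082), Srebf1 at -0.08, Scap at -0.20 and Insig2, the relative of Insig1, at -0.10. Insig1 and Insig2 were thus at -1.19 and -0.10, a gap that was not itself tested. Against the 48 h sham none of the 8 was called, with Stard4 at -0.40, Insig2 at -0.26, Srebf1 at -0.13, Srebf2 at -0.12 and Scap at -0.01.

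**Figure D3:**
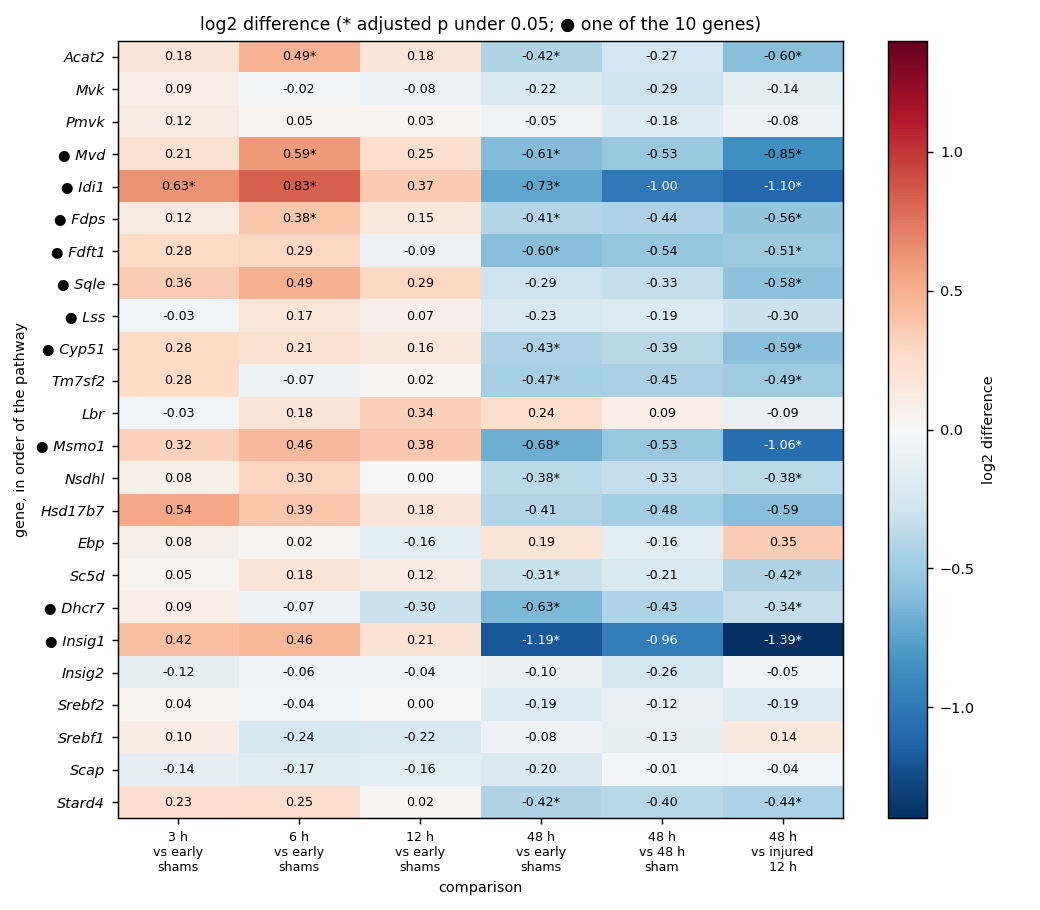
Log2 difference (colour and number) of the 10 genes and of other pathway genes in rows, in pathway order from Acat2 to Dhcr7 and then the regulators, for 6 comparisons in columns; dots mark the 10 genes described and asterisks an adjusted p under 0.05. All 10 genes described are below 0 in the 3 columns of 48 h, and Insig1 has the darkest blue, at -1.39 against 12 h of injury.

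Of 14 measured genes out of 15 for the export, storage and breakdown of cholesterol, 6 were called higher at 48 h than in the early shams. Over all genes 6.37% were called higher. None of the 14 was called lower, although 5 lay below 0. The median was 0.29, against -0.01 over all genes. Lcat, which esterifies cholesterol on lipoproteins, was higher by 1.57 ± 0.22 (adjusted p = 0.00136), Npc2, which moves cholesterol out of lysosomes, by 1.14 ± 0.16 (adjusted p = 0.00124), and Abca1, the exporter of cholesterol to lipoproteins, by 1.24 ± 0.29 (adjusted p = 0.0189). Against the single 48 h sham none of the 14 was called by limma. Of the 14, 6 lay below 0 and the median was 0.056, with Lcat at 0.88, Npc2 at 0.78 and Abca1 at 0.70. At 48 h, 4 of the 14 were called higher than at 12 h of injury, where 8.19% of all genes were, with Lcat at 2.33 ± 0.22 (adjusted p = 6.178e-05).

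Over the 16 arrays the 10 other genes whose values correlated best with the mean of the 10 described were Acat2 and Sc5d (r of 0.93 each), Nsdhl and Pisd (0.92 each), Stard4 and Pcyt2 (0.91 each), Zfand2a and Paip2b (0.89 each), Atf4 (0.88) and Sdhaf1 (0.87). All 10 were lower at 48 h than at 12 h of injury, from -0.19 for Paip2b to -0.81 for Atf4, which is part of the pattern they were chosen by. Among marker genes the closest was the myelin gene Mbp, at rank 14 (r of 0.86). The other oligodendrocyte markers ran from 0.83 for Mobp to 0.08 for Ugt8.

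Cell type markers moved at 48 h beside the 10 genes. Of 10 measured oligodendrocyte markers out of 12, Mal alone was called against the early shams, at -0.48 ± 0.13 (adjusted p = 0.036). Over all genes 3.32% were called lower. The median of the 10 markers was -0.13. The list's mean per array ran from -0.41 to -0.04 in injured cortex, against -0.36 to 0.02 in the early shams. Mbp was the 1 of the 10 called lower than at 12 h of injury, by 0.39 ± 0.09 (adjusted p = 0.0125). Over all genes 7.14% were called lower in that comparison. The list was split in that comparison, with 4 of the 10 above 0, 6 below and a median of -0.12. Against the 48 h sham, whose list mean was -0.11, the median of the 10 markers was -0.12 and none was called.

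Of 11 neuron markers 2 were called lower than in the early shams, Camk2a at -0.77 and Rbfox3 at -0.34, where 3.32% of all genes were. The list's means per array were -0.25 to 0.05 in injured cortex, against 0.09 to 0.19 in the early shams and 0.00 in the 48 h sham. The direction of Camk2a turned against the 48 h sham, at 0.083, while Rbfox3 was at -0.34. Of 7 microglia markers 5 were called higher, where 6.37% of all genes were. Their means were 1.10 to 1.78 in injured cortex, against 0.03 to 0.35 in the early shams and 0.68 in the 48 h sham. Of 8 astrocyte markers 3 were called higher. Their means were 0.24 to 0.29 in injured cortex, against -0.04 to 0.01 in the early shams and 0.04 in the 48 h sham. Of 7 monocyte and macrophage markers 3 were called higher. Their means were 0.08 to 1.68 in injured cortex, against -0.55 to -0.45 in the early shams and -0.13 in the 48 h sham. Of the other marker lists at 48 h, 1 of 4 measured oligodendrocyte precursor genes was called higher than in the early shams (Cspg4, at 0.38). So was 1 of 6 fibroblast genes (Lum, at 0.97). None of 4 neutrophil, 5 endothelial, 4 choroid plexus and 2 erythrocyte genes was called. No marker was called against the 48 h sham, where Lum was at -0.16 and 5 of the 6 fibroblast genes lay below 0, with a median of -0.31. Between 12 and 48 h of injury all 7 microglia markers were called higher, where 8.19% of all genes were. So were 5 of 6 fibroblast and 3 of 4 oligodendrocyte precursor genes. The same held for 3 of 5 endothelial, 3 of 8 astrocyte and 1 of 7 monocyte and macrophage genes. Called lower were 3 of 4 neutrophil, 1 of 11 neuron and 1 of 2 erythrocyte genes and Mbp, where 7.14% of all genes were. The part of these markers in the fall of the cholesterol genes was not tested.

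At 3 and 6 h all 10 oligodendrocyte markers lay above 0 against the early shams, with medians of 0.34 and 0.30, and none was called. Their means per array were 0.07 to 0.32 at 3 h and 0.13 to 0.20 at 6 h in injured cortex, against -0.36 to 0.02 in the early shams. The haemoglobin gene Hbb, a mark of blood, was higher by 3.40 at 3 h and 3.88 at 6 h, both called. Other marker lists also moved. At 3 h 1 of 6 fibroblast genes was called lower, against 14 of 14218 genes. Choroid plexus genes differed by up to 4.24 at that time, with none called. At 6 h 3 of 7 microglia, 3 of 5 endothelial and 3 of 6 fibroblast genes were called lower, against 97 of 14218 genes. Called higher then were 2 of 4 neutrophil, 1 of 7 monocyte and macrophage and 1 of 5 endothelial genes, against 282 of 14218. At 12 h 3 of 7 microglia, 4 of 6 fibroblast and 2 of 5 endothelial genes were called lower, against 196 of 14218. So were 2 of 8 astrocyte and 1 of 11 neuron genes. Called higher were 3 of 4 neutrophil, 1 of 7 monocyte and macrophage and 1 of 8 astrocyte genes, against 496 of 14218. Of 2 erythrocyte genes 1 was called higher as well. The part of any of these markers in the early values of the cholesterol genes was not tested.

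**Figure D4:**
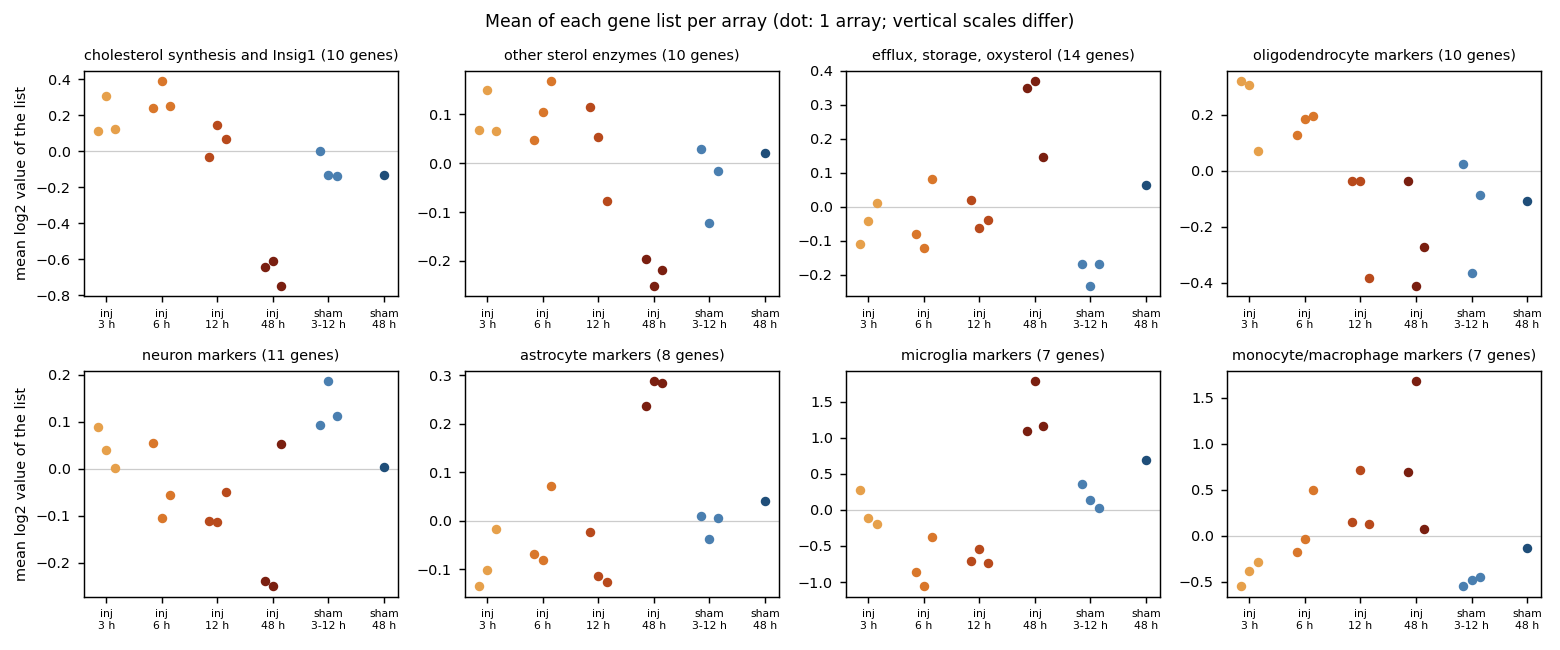
Mean centred log2 value of each gene list (vertical axis, scales differ) in every array, for the 10 genes described, the other sterol enzymes, the export and storage genes and 5 lists of cell type markers. The 10 genes lie between -0.75 and -0.61 at 48 h of injury and apart from all other arrays, and the microglia markers lie between 1.10 and 1.78 in the same arrays.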

How the data were processed

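RNA of 12 injured and 4 sham cortices was measured on 16 arrays. The deposited values are log intensities made with RMA per the submitters' processing notes. The base of the logarithm, read here as log2, is not given in the sources used here, and each probe set's median over the 16 arrays is 0 in the deposited table, where values run from -5.64 to 5.98.

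The 20832 probe sets with 1 symbol were averaged per gene, and 20764 of them took their current symbol from the gene identifier. A linear model of 6 groups with 10 residual degrees of freedom was fitted to 14218 genes with limma 3.58.1 in R 4.3.3, with Benjamini-Hochberg adjustment over all genes and a threshold of 0.05. Figures and promoter searches used Python 3.11.15. The scripts were tested on simulated data. Arrays have no read depth, and their number limits the precision.

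The 10 genes and all lists (5 of pathways, 11 of markers) were chosen with earlier results of these data known. Named were every 1 of the 10, up to 3 called genes with the lowest adjusted p per pathway list and comparison, Srebf1, Srebf2, Scap and Insig2, and the 10 genes most correlated with the mean of the 10. Marker genes and a few others were named after their values were seen. Alternatives were other probe set rules, quantile normalization, median centring, robust eBayes, fewer arrays in the fit, other shams, each array left out in turn and the replicate number as a block.

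The replicate numbers of the 48 and 12 h injured arrays do not mark shared animals in the labels. Deviations of arrays with the same number correlated at 0.0895, 0.193 and 0.189 over genes, and were not treated as paired.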

Additional observations from a re-analysis of the deposited data

Results flagged for a closer look

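The difference between injured cortex and the early shams at 48 h was itself different from that at 12 h for 9 of the 10 genes (limma, adjusted p under 0.05). Both times share the early shams, so this test is the contrast of the 48 h with the 12 h injured arrays given above. Insig1 differed by -1.39, Idi1 by -1.10 (adjusted p = 0.00014), Msmo1 by -1.06 and Mvd by -0.85. Cyp51 differed by -0.59, Sqle by -0.58, Fdps by -0.56, Fdft1 by -0.51 and Dhcr7 by -0.34. Groups of 3 arrays are too small for a test of single outlying arrays.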

How the results depend on the processing

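Of 1152 differences of single genes recomputed under alternatives, 1088 kept their direction and side of the threshold, 34 lost a call, 20 gained one and 10 changed sign. None of the sign changes involved the injured arrays of 48 h. The count of 8 genes lower at 48 h than in the early shams was 7 to 8 under every alternative, and the count of 9 against 12 h was 7 to 10. At 3 h the count of 1 became 0 with the probe set of largest SD, each probe set by itself, only the compared groups or the single 3 h sham as control. At 6 h the count of 3 became 6 with only the compared groups and 0 with the single 6 h sham. With the 3 early times averaged, the count of 1 became 3 after quantile normalization. Leaving out 1 array at a time gave 0 to 1 at 3 h, 1 to 4 at 6 h, 0 to 2 at 12 h, 1 to 4 for the average and 0 to 1 at 48 h against the 48 h sham. The cause was not tested.

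Signs changed among small differences. Fdft1 at 12 h was 0.037 against the single 12 h sham. Leaving out arrays, it ran from -0.15 to 0.037, and Lss ran from -0.11 to 0.027 at 3 h, from -0.0025 to 0.13 at 12 h and from -0.0053 to 0.13 for the average. For the 48 h sham against the early shams the ranges were -0.12 to 0.065 for Fdft1, -0.11 to 0.025 for Lss, -0.155 to 0.005 for Mvd, -0.06 to 0.13 for Sqle and -0.01 to 0.09 for Fdps.

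With the replicate number as a block, 8 genes were called lower at 48 h than at 12 h in place of 9. No pairing of injured with sham arrays was possible, as they share fewer than 2 numbers. Each 48 h array correlated best with the 12 h array of its own number, a hint from the data only. Without the 2 arrays of widest spread, an alternative chosen after seeing the data, the counts were 1, 4 and 0 at 3, 6 and 12 h, 1 for the average, 8 at 48 h against the early shams, 0 against the 48 h sham and 9 against 12 h.

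Counts over all genes moved more: at 48 h 905 were called higher and 472 lower against the early shams, with ranges of 404 to 1292 and 78 to 762 over the alternatives run on genes. Against 12 h the 1165 and 1015 ranged from 264 to 1292 and from 124 to 1173. At 3 h the 69 and 14 ranged from 9 to 125 and 0 to 53, at 6 h the 282 and 97 from 50 to 575 and 20 to 275, and at 12 h the 496 and 196 from 56 to 839 and 21 to 391. For the average the 296 and 90 ranged from 143 to 436 and 30 to 181. Against the 48 h sham 0 became up to 112 higher and 17 lower, and for the 48 h sham against the early shams the 0 and 1 became up to 63 and 7.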

Other observations

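Of 11 measured fatty acid synthesis genes, many of which SREBP also drives, none was called by limma at 48 h against the early shams, with a median of -0.10. An unadjusted p under 0.05 in that fit was found for 3 of the 11, against 3603 of all 14218 genes. Against 12 h of injury Acss2, which activates acetate, was lower by 0.56 ± 0.08 (adjusted p = 0.00062) and Fasn, fatty acid synthase, by 0.36 ± 0.11 (adjusted p = 0.0475). These were 2 of the 11, where 7.14% of all genes were called lower. Acss2 was also the only one of the 11 called at 12 h against the early shams, higher by 0.35 ± 0.08 (adjusted p = 0.0189). In that comparison 496 of 14218 genes were called higher.

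Of 6 measured genes of the branch from farnesyl diphosphate to other isoprenoids, out of 7, Fnta, a farnesyltransferase subunit, was higher by 0.37 ± 0.08 at 48 h against the early shams (adjusted p = 0.0129), and Nus1 was lower by 0.25 ± 0.08 than at 12 h (adjusted p = 0.0443). Each was 1 of the 6, where 6.37% of all genes were called higher in the first comparison and 7.14% lower in the second. Ch25h, which makes an oxysterol, was higher than in the early shams by 3.20 ± 0.56 at 6 h (adjusted p = 0.00619) and 2.60 ± 0.56 at 12 h (adjusted p = 0.0164). Its mean was -2.20 in the early shams, whereas the single 48 h sham read -0.25. Injured cortex at 48 h differed from that 48 h sham by -0.56.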
